A study of Mus musculus with 8 samples.

Results

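KLF3-GFP-positive mESCs were compared with KLF3-GFP-negative ones across all genes of the sorted-cell table, to ask how the rare cells that hold the fluorescent KLF3 protein differ from the rest of the culture. Genes were included when the mean of both conditions was at least 1 FPKM, the fragment count normalized for transcript length and sequencing depth. This left 9212 of 13056 genes. Each condition had 2 samples of 500 sorted cells, whose RNA was amplified as full-length cDNA by the Smart-seq2 method before sequencing, and the table gives 1 mean of both samples for each gene. The mESCs, which derive from a cross of C57BL/6(F) with 129/sv(M), were grown on gelatin in serum and leukaemia inhibitory factor. Both groups carried the same piggyBac construct (PB-CAGGS-Klf3-GFP-EF1α-DsRed), in which the N-terminal part of KLF3 without its DNA-binding domain is fused to Emerald GFP under the CAGGS promoter, and DsRed under the EF1α promoter marks cells with the construct. Both groups were sorted by GFP fluorescence from mESCs with this construct, and the GFP reports an introduced fusion protein and not the Klf3 gene. The spread between the 2 samples and the number of reads behind a mean are unknown, so no SD or p-value stands beside any difference, and whether a difference exceeds the error between samples could not be assessed.

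Mouse ESCs resemble the epiblast of the blastocyst, and their cultures can hold cells that have taken the path of the primitive endoderm, the other derivative of the inner cell mass. In the embryo this lineage is specified by FGF signalling and the transcription factors GATA6, GATA4 and SOX17, and it gives rise to the visceral endoderm, which takes up proteins by endocytosis, digests them in lysosomes and secretes carrier proteins, and to the parietal endoderm, which lays down a thick basement membrane. Both tissues therefore depend on the secretory pathway of the endoplasmic reticulum (ER) and Golgi. The label of the cells was checked first. Pou5f1 (Oct4), the defining factor of pluripotent cells, was read at 115 FPKM in negative cells and at 59.4 FPKM in positive cells. Dppa5a, which is highly expressed in mESCs, was read at 20569 and 10977 FPKM. Both groups thus expressed defining markers of mESCs, and KLF3-GFP-positive cells expressed markers of endoderm beside them. In samples of 500 cells, endoderm and pluripotency transcripts in the same cell cannot be told apart from a mixture of cells, and fewer cells of a type cannot be told apart from less RNA per cell. Of 18 listed fibroblast markers 5 could be read here, of which 1, Fn1, passed the minimum, at 6.83 and 3.32 FPKM, and Col1a2 stood at 0.1 and 0.25 FPKM. Klf3 itself was read at 107 and 122 FPKM (log2 change 0.19), and reads of the construct can count towards it.

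Changes were computed as differences of log2(FPKM + 1), positive minus negative, a scale on which low genes change by less than their ratio. Genes above a 2-fold change on this scale were called upregulated (1267 genes, 13.8% of those tested) and genes below 0.5-fold downregulated (766 genes, 8.32%). The median change was 0.03 and the middle of the distribution, between the quartiles, ran from -0.43 to 0.56. Large changes were mostly rises. Above 4-fold, 352 genes rose and 88 fell, and above 16-fold, 51 rose and 0 fell. The median of upregulated genes was 3.26 FPKM in negative cells against 14.96 FPKM in positive cells, and downregulated genes had medians of 9.15 and 2.46 FPKM. Most rises did not start from silence, since 951 of the upregulated genes were at 1 FPKM or more in KLF3-GFP-negative cells and 362 at 10 FPKM or more. Together, upregulated genes accounted for 3.47% of all FPKM in negative cells and for 12.6% in positive cells, while downregulated genes accounted for 4.25% and 1.37%. A gene that passed the minimum through 1 condition while standing near the lowest value of the table (0.1 FPKM) in the other had to differ, which holds for the 56 upregulated genes at 0.1 FPKM in KLF3-GFP-negative cells. At the limits, Tpm1 (28.6 to 58.2 FPKM) lay just inside and Prrc1 (3.19 to 7.38 FPKM) just outside for rises, and Tmod2 (2.06 to 0.53 FPKM) lay just outside for falls.

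**Figure D1:**
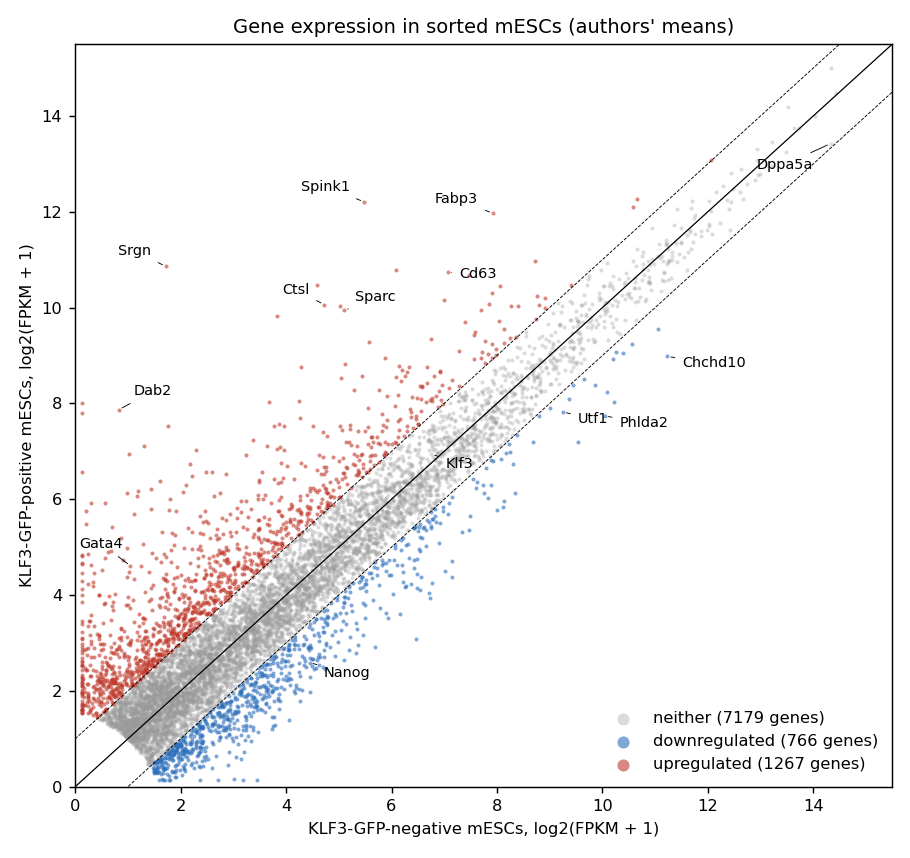
Log2(FPKM + 1) of 9212 genes in KLF3-GFP-negative (x axis) and KLF3-GFP-positive (y axis) mESCs, each point 1 gene at the authors' means, with the line of equal expression and dashed lines at a 2-fold change. The 1267 upregulated genes reach farther from the diagonal than the 766 downregulated genes, Klf3 lies near it, and no error bar can be given.

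The genes with the largest rises included Srgn, Lgals2 and S100g. Dab2 (chromosome 15 of mm10, 6299788 to 6440712), an endocytic adaptor of extraembryonic endoderm, rose from 0.78 to 233 FPKM (log2 change 7.04). Tfpi, an inhibitor of blood coagulation, rose from 13.2 to 900.2 FPKM (5.99), and Rhox5, an X-linked homeobox gene, from 23.2 to 1410.4 FPKM (5.87). Glipr1, at the lowest value in KLF3-GFP-negative cells, rose to 93.7 FPKM, and the phospholipase gene Pla2g12b (0.23 to 59.3 FPKM), the heparan sulphate sulphotransferase gene Hs3st1 (0.16 to 52.6 FPKM) and Nostrin (0.15 to 43.9 FPKM) were near the lowest value in KLF3-GFP-negative cells. The largest falls were smaller than the largest rises. Pla2g1b, a secreted phospholipase, fell from 105 to 14.3 FPKM (-2.79), and Pcolce, an enhancer of collagen maturation, from 141 to 19.8 FPKM (-2.77). Rasgrp2, an activator of Rap1, fell from 104 to 15.46 FPKM, the keratin gene Krt42 from 50.4 to 6.59 FPKM, and Steap1, a metalloreductase, from 70.2 to 11.1 FPKM. Cela2a, a pancreatic elastase, fell from 7.12 to 0.12 FPKM.

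By FPKM instead of ratio, other genes came to the fore, chosen here by their absolute difference after the values were seen. The largest gains were those of the ferritin light chain gene Ftl1 (20669 to 32833 FPKM) and of Tmsb10, which encodes an actin-binding thymosin (11766 to 18711 FPKM), and neither passed the 2-fold limit. Spink1, which encodes a trypsin inhibitor, rose from 43.6 to 4729 FPKM, and Fabp3, which encodes a fatty acid carrier, from 241 to 3999 FPKM (log2 change 4.04). Actb, often used as a reference gene, was at the limit, with 4265 and 8659 FPKM (1.02, and 0.98 with median-ratio scaling). The copper chaperone gene Atox1 (1620 to 4946 FPKM, 1.61) also rose. The largest losses past the limit were those of the mitochondrial gene Chchd10 (2405 to 504 FPKM, -2.25) and of Rpl22l1, a paralogue of a ribosomal protein gene (2119 to 747 FPKM, -1.502).

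Regulators of the primitive endoderm rose as a group. Of 15 members tested, 12 were upregulated and 0 downregulated, with a median log2 change of 2.94 against 0.03 for all genes, and without the minimum 14 of 19 were upregulated. The GATA factor genes Gata6 (1.63 to 21.3 FPKM, log2 change 3.08) and Gata4 (1.07 to 23.4 FPKM, 3.56) lay close to each other in both conditions. Among the SOX factors, Sox17 was the higher (2.76 to 53.2 FPKM) and Sox7, which follows later in the embryo, the lower (0.14 to 4.55 FPKM). Forkhead factors of the endoderm were upregulated from very low values. Foxa2 rose from 0.1 to 7.45 FPKM and Foxq1 from 0.83 to 35.4 FPKM. The coactivator gene Cited1 went from 1.02 to 122.7 FPKM (5.94), second to Dab2 in this list. Receptor genes rose as well. Pdgfra, whose product marks the primitive endoderm at the cell surface, rose from 0.44 to 9.67 FPKM (2.89), Pth1r, the receptor of parathyroid hormone-related protein, from 0.61 to 29.2 FPKM (4.23), and Fgfr2 from 0.61 to 3.66 FPKM (1.53). The members short of the limit were Hhex (3.66 and 3.46 FPKM), Sall1 (2.21 and 2.22 FPKM) and Eomes (0.83 and 1.48 FPKM). Hnf4a, a later regulator of visceral endoderm, was read at 0.1 and 1.21 FPKM, below the minimum.

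Genes of uptake and secretion in the visceral endoderm mostly rose. Of 18 tested, 12 were upregulated and 3 downregulated (median 2.21), and without the minimum 13 and 3 of 24. The receptor complex that the visceral endoderm uses to take up proteins was upregulated in each of its parts. Cubn, which encodes cubilin, rose from 0.1 to 27.8 FPKM, its membrane partner Amn from 2.39 to 185 FPKM, and Lrp2, which encodes megalin, from 0.19 to 17.8 FPKM. Lrpap1, the chaperone of megalin-type receptors, rose from 66.7 to 1761 FPKM (log2 change 4.70). Secreted lipid carriers diverged. Apom (1.29 to 70.9 FPKM), Apoe (420.1 to 1995 FPKM) and Apoc2 (1.52 to 10.3 FPKM) were upregulated, whereas Apoa2 fell from 76.8 to 17.3 FPKM (-2.09). Trf, which encodes the iron carrier transferrin, fell from 18.2 to 3.93 FPKM, and the third downregulated member was Apoa1 (4.16 to 1.14 FPKM), named here outside the naming rule. Ttr, a late marker of visceral endoderm, stood at 0.1 and 1.79 FPKM, below the minimum.

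Genes of the parietal endoderm and basement membrane made the most uniform of the lists with at least 20 genes tested. Of 28 members tested, 25 were upregulated (89.3%) and 0 downregulated, with a median of 2.04, and without the minimum 25 of 34. The collagen IV chain genes Col4a1 (chromosome 8, 11198423 to 11312826) and Col4a2, which share a promoter region head to head, rose from 1.47 to 138 FPKM (5.81) and, in the second case, from 0.48 to 59.4 FPKM (5.35). All chains of laminin-111, the first laminin of the embryo, rose. Lama1 went from 0.62 to 41.9 FPKM, Lamb1 from 2.04 to 82.8 FPKM and Lamc1 from 13.6 to 188 FPKM. Sparc, which encodes a collagen-binding matrix protein, rose from 33.5 to 981 FPKM (4.83). The enzymes and chaperones of collagen in the ER belong to the same list and are counted in it, and all 28 tested members had changes above 0. P4ha1, which encodes a catalytic subunit of prolyl hydroxylase, rose from 2.12 to 38.7 FPKM, P4hb, its partner subunit, from 106 to 650.3 FPKM, and Serpinh1, the collagen chaperone, from 18.4 to 430.4 FPKM. Of all 7 collagen genes tested, 5 rose and Col18a1 fell from 4.19 to 1.42 FPKM (median 1.22). Without the minimum, 5 of 13 collagen genes rose and 1 fell, with a median of 0.18.

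**Figure D2:**
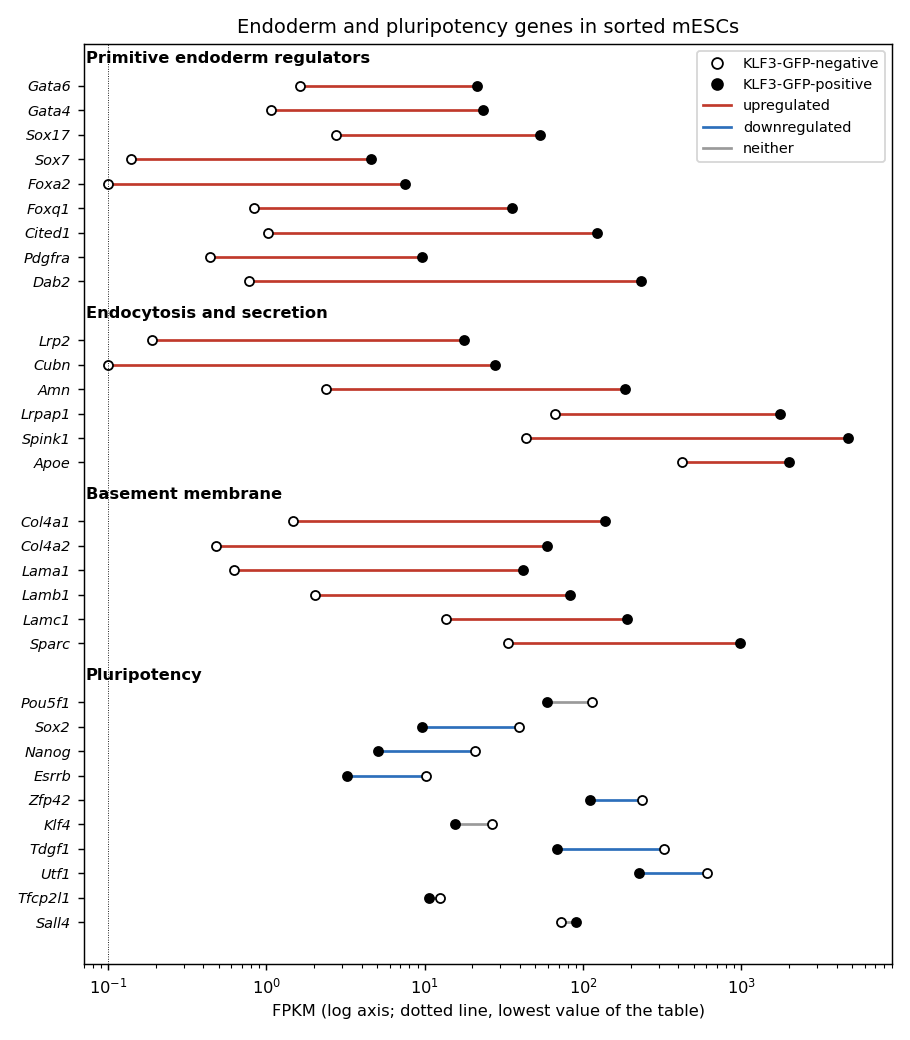
FPKM (log axis) of selected endoderm, uptake, basement membrane and pluripotency genes in KLF3-GFP-negative (open circles) and KLF3-GFP-positive (filled circles) mESCs, joined by a line coloured by the call, with a dotted line at the lowest value of 0.1 FPKM. The endoderm and matrix genes shown are upregulated ones and so lie to the right in KLF3-GFP-positive cells, most by more than 10-fold. Apoa2, Trf and Apoa1, which fell, and Hhex, Sall1 and Eomes, which stayed within the limit, are not shown. The pluripotency genes moved by less, and Sall4, Klf4, Tfcp2l1 and Pou5f1 stayed within the 2-fold limit.

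Naive pluripotency genes were lower without being lost. Of 39 tested, 17 were downregulated and 2 upregulated (43.6% and 5.13%), with a median of -0.80. The summed FPKM of the list was 0.53 of that in KLF3-GFP-negative cells (22837 and 12093 FPKM in negative and positive cells). Most of this sum came from Dppa5a alone (20569 and 10977 FPKM). The largest fall was that of Tdgf1 (Cripto), a coreceptor of Nodal, from 324 to 68.9 FPKM (-2.22). Utf1, a chromatin factor of undifferentiated cells, fell from 609 to 225 FPKM, and Nr0b1 from 16.3 to 4.78 FPKM. Dppa2 (76.6 to 31.9 FPKM) and its partner Dppa4 (95.4 to 41.0 FPKM) fell to like extents. The regulators did not move as 1 block. Klf4 (26.5 and 15.6 FPKM), Tfcp2l1 (12.5 and 10.6 FPKM) and Stat3 (9.10 and 11.3 FPKM) stayed within the limit. Sall4, which pluripotent cells and primitive endoderm share, was read at 72.4 and 89.6 FPKM, and Lin28a at 25.6 and 35.97 FPKM. Lifr, the receptor of leukaemia inhibitory factor, rose from 3.32 to 8.25 FPKM (1.098, and 0.96 with quantile normalization), while its partner Il6st was read at 0.64 and 1.37 FPKM and the feedback gene Socs3 at 10.8 and 14.6 FPKM. In the list of formative and epiblast genes, with 10 tested, Dnmt3b rose from 6.15 to 20.4 FPKM and its relative Dnmt3a fell from 44.5 to 18.9 FPKM, so the genes of the de novo DNA methyltransferases changed in opposite directions. Otx2, a marker of the formative state, was read at 2.42 and 1.27 FPKM, and is named outside the rule.

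Markers of other lineages gave mixed counts. Of 21 trophectoderm and trophoblast genes tested, 10 rose and 4 fell (median 0.79), and without the minimum 10 and 4 of 29 (median 0.23). The summed FPKM was 0.62 of that in KLF3-GFP-negative cells, because Phlda2, an imprinted growth gene of the placenta, fell from 1055 to 213 FPKM. The rises included the epithelial keratin genes Krt18 (12.7 to 183 FPKM), which endoderm also expresses, and Plac1 (0.1 to 5.11 FPKM). The defining factor Cdx2 stood at 0.1 and 0.57 FPKM and Gata3 at 0.36 and 0.12 FPKM, both below the minimum, and Tfap2c was read at 2.40 and 0.77 FPKM. Of 5 neural progenitor genes tested, 3 fell, namely Stmn2 (177 to 40.1 FPKM), Crabp1 (24.1 to 5.53 FPKM) and Pax6 (4.50 to 0.47 FPKM), and 0 rose. Without the minimum, 4 of 16 neural progenitor genes fell and 0 rose. Of 8 mesoderm and mesenchyme genes tested, 2 rose and 2 fell, and without the minimum 3 and 3 of 20. The list of 2-cell-like and germline genes had 12 of 17 members downregulated and 0 upregulated (median -1.24). The counts say little on 2-cell markers. Zscan4c (0.21 and 0.1 FPKM) and Gm8300 (0.1 and 0.18 FPKM) lay below the minimum, and Eif1a (38.99 and 40.3 FPKM) stayed within the limit. All 3 are named outside the rule. The members that fell furthest act in germ cells. Stra8, needed for entry into meiosis, fell from 21 to 3.89 FPKM (-2.17), Tdrd12, of the piRNA pathway, from 11.2 to 1.94 FPKM, Hormad1, a protein of meiotic chromosome axes, from 4.30 to 0.95 FPKM, and Tex19.1 from 10.4 to 3.22 FPKM. Without the minimum, the same list had 12 of 23 members downregulated.

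Genes of the secretory and lysosomal route were upregulated far above the background. Over the 15 lists of this theme, 220 of 564 genes tested rose (39%) and 10 fell (1.77%), with a median of 0.77, and their share of the summed FPKM went from 2.24% to 4.81%. The rise covered successive stations of the pathway. At the ER membrane, where new proteins are threaded in, 12 of 34 translocon and signal peptide genes rose and 0 fell (median 0.73). Ssr4, a subunit of the translocon-associated protein complex, rose from 167 to 829.8 FPKM (log2 change 2.31), and Spcs1, of the signal peptidase, from 262 to 842 FPKM. Chaperones and disulphide isomerases of the ER lumen showed the largest share of this route, with 29 of 42 upregulated and 1 downregulated (69% and 2.38%, median 1.37). Calr, which encodes the lectin chaperone calreticulin, rose from 74.99 to 381 FPKM, and Pdia5, a disulphide isomerase, from 6.03 to 37.9 FPKM. Fkbp10, a prolyl isomerase that assists collagen, was the member that fell, from 3.72 to 1.24 FPKM, and is named outside the rule. Of 50 genes that build and trim N-glycans, 24 rose and 2 fell (median 0.97), among them Fut8, which adds core fucose (0.65 to 4.77 FPKM), and Dpagt1, which starts the lipid-linked sugar chain (2.38 to 9.52 FPKM).

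The list of ER-associated degradation and the unfolded protein response held 16 upregulated and 2 downregulated genes of 40 (median 0.57). Derl1, of the channel that removes misfolded proteins, rose from 6.28 to 25.2 FPKM, and Herpud1 from 11.7 to 43.1 FPKM. Creb3 (5.12 to 22.5 FPKM) and Creb3l2 (0.18 to 2.77 FPKM), membrane-bound transcription factors of the secretory pathway, rose too. By contrast, Trib3, a target of the integrated stress response, fell from 5.70 to 1.06 FPKM (-1.70). In the list of amino acid synthesis and one-carbon metabolism, 12 of 44 genes fell and 5 rose (median -0.49). The largest change was the rise of Glul, the glutamine synthetase gene, from 25.2 to 168 FPKM (2.69), and among those that fell were genes of several routes, with Psat1, of serine synthesis, going from 87.9 to 20.8 FPKM, Mthfd2, of mitochondrial folate metabolism, from 84.9 to 22.8 FPKM and the branched-chain aminotransferase gene Bcat1 from 20.8 to 6.53 FPKM. Among tRNA synthetase genes the median was -0.35, with 1 of 36 downregulated, Cars (26.4 to 9.41 FPKM), and 1 upregulated, Wars (12.8 to 28.8 FPKM).

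Vesicle transport between ER and Golgi followed. All 55 listed coat and cargo receptor genes passed the minimum, and 29 rose and 0 fell (52.7%, median 1.06). Sec24d, a cargo adaptor of COPII vesicles, rose from 2.65 to 19.6 FPKM, the cargo receptor gene Surf4 from 16.8 to 85.4 FPKM, and Kdelr3, which returns ER proteins, from 59.2 to 199.9 FPKM. Matrix and tethering proteins of the Golgi lay nearer to the background, with 8 of 44 upregulated (18.2%) and a median of 0.38, led by the SNARE gene Bet1 (35.4 to 144.6 FPKM). Downstream trafficking genes changed selectively. Of 40 Rab GTPase genes 9 rose and 3 fell (median 0.55), and Rab11a, of recycling endosomes, rose from 192 to 715 FPKM, while Rab20 rose from 2.93 to 14.2 FPKM. Of 58 ESCRT, retromer and sorting nexin genes 14 rose and 0 fell, among them Chmp2b (8.52 to 40.7 FPKM) and Snx2 (55.8 to 219 FPKM). Clathrin heavy chain, the coat protein of endocytic vesicles (Cltc), rose from 6.09 to 27.9 FPKM, and 11 of 40 genes of clathrin-mediated endocytosis rose in all, with 1 falling.

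Lysosomal genes rose in every class that was listed. Proteases had 10 of 15 members upregulated (median 2.49), glycosidases, sulphatases and lipases 17 of 33 (1.05), membrane proteins 16 of 26 (1.31) and subunits of the proton pump that acidifies the lysosome 11 of 17 (1.23), with 0 downregulated in each. Without the minimum the numbers that rose were the same, of 16, 39, 28 and 20 genes. Beyond Ctsl, whose cathepsin is abundant in endoderm, Ctsc rose from 4.57 to 93.3 FPKM (4.08), Tpp1 from 2.31 to 26.9 FPKM and Ctsz from 57.9 to 493 FPKM. Neu1, a sialidase, rose from 4.51 to 52.7 FPKM, and Hexa, which degrades gangliosides, from 10.2 to 81.0 FPKM. The tetraspanin gene Cd63 reached 1708 FPKM from 133 FPKM (3.67) and Lamp1, of the lysosomal membrane, 413 FPKM from 72.1 FPKM. Of the pump, Atp6v0b rose from 229 to 1079 FPKM and Atp6ap1 from 4.13 to 31.6 FPKM. In contrast, autophagy and MiT/TFE genes had 6 of 46 upregulated (13%), a share like that of all genes, and 0 downregulated (median 0.31). Those 6 included Tfec, a MiT/TFE transcription factor, which reached 27.3 FPKM from the lowest value (4.69), and Gabarap, which encodes an ATG8 protein of autophagosomes (53.5 to 308 FPKM).

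**Figure D3:**
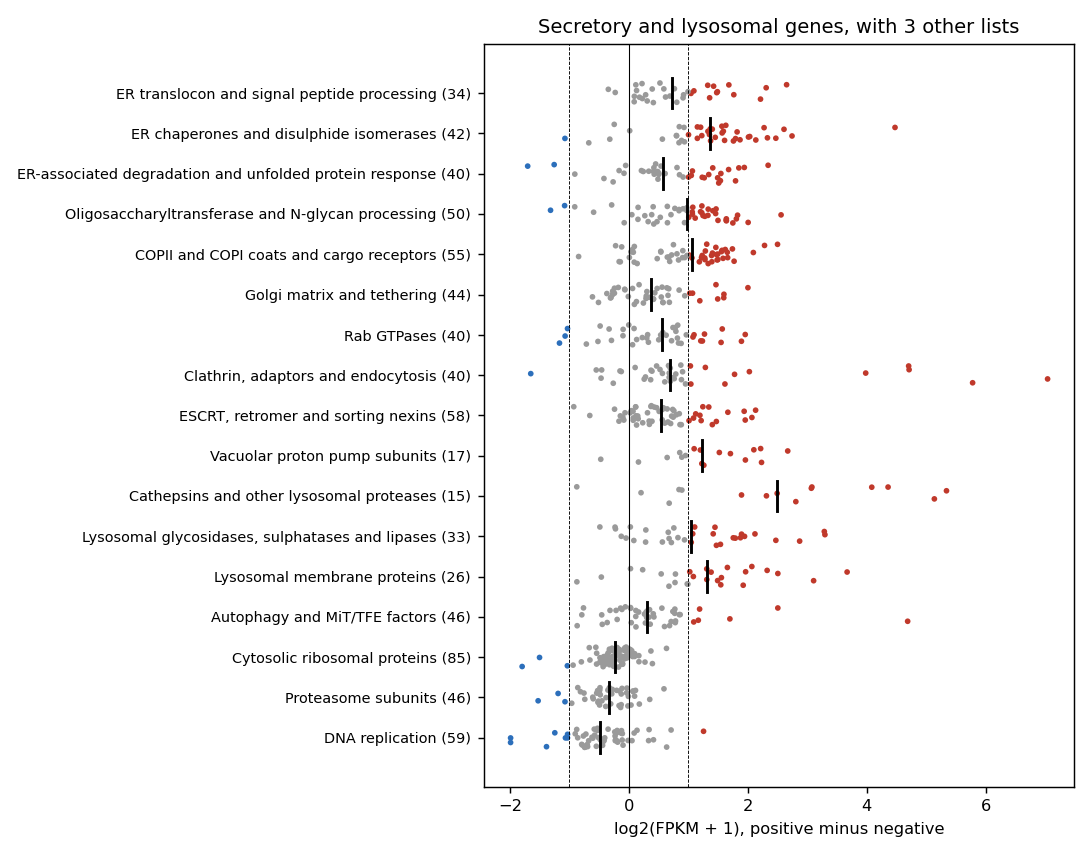
Log2 change of each gene tested in 14 lists of the secretory and lysosomal route and in 3 lists of other functions, with the number tested in brackets, 1 point per gene (red, upregulated, blue, downregulated, grey, neither), black bars at list medians and dashed lines at the 2-fold limits. The medians of the lysosomal classes lie at 1.05 to 2.49 and those of ribosomal proteins, proteasome and DNA replication at -0.23, -0.34 and -0.48.

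Because the lysosomal classes rose together, their promoters were searched for TCACGTG, the core of the motif bound by MiT/TFE factors, which contains the E-box CACGTG. Promoters were windows of RefSeq on GRCm38.p6 from 250 bases before to 50 bases after the start, searched on both strands, and were found for 7438 of the 9209 gene symbols tested (80.8%). Promoters were found for 79.6% of the upregulated lysosomal genes and 76.9% of all lysosomal genes, under the 80% needed, so the comparison between sets is void and the shares describe the matched genes only. The motif stood in 16 of 43 promoters of upregulated lysosomal genes (37.2%), in 4 of 27 of the other lysosomal genes (14.8%), in 6.66% of all promoters of tested genes and in 3.77% of the 32851 promoters of the table. Over all upregulated genes the share was 8.25%, and over downregulated genes 3.37%. The 3 matched genes with the largest rise are shown, chosen after the values were seen, with the motif, or its reverse complement, in capitals. They are Plbd1, a phospholipase B-like protein (0.23 to 11.1 FPKM), Igf2r, the receptor that sorts mannose 6-phosphate enzymes to the lysosome (4.38 to 45.3 FPKM), and Dpp7, a dipeptidyl peptidase (7.87 to 61.0 FPKM), at chr6:136661844-136662143, chr17:12769657-12769956 and chr2:25356283-25356582, each on the minus strand of the genome. The motif began 43 bases after the start in Plbd1, 49 and 8 bases before it in Igf2r and 74 bases before it in Dpp7, and where 8 bases are in capitals it is present on both strands.
Plbd1: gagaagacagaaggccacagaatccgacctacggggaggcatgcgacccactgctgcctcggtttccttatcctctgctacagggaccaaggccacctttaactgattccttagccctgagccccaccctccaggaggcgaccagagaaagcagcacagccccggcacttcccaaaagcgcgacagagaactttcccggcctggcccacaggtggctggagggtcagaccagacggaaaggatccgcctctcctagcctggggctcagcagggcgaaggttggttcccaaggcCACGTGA
Igf2r: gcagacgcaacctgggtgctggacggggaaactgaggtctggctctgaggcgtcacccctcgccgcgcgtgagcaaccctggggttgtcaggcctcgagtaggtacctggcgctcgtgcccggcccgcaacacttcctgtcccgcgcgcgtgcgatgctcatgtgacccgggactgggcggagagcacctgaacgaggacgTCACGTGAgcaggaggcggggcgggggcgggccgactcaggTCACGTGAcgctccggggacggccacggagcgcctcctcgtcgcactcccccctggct
Dpp7: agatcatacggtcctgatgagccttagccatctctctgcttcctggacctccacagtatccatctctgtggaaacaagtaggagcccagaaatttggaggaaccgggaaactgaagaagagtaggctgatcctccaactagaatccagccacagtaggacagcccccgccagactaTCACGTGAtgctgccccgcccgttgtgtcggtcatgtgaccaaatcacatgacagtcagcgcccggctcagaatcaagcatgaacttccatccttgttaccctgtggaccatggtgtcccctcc
A match of these letters is a description and not evidence of binding. Other motifs were searched in the promoters of upregulated and downregulated genes. CACCC, which Kruppel-like factors bind, stood in 66.3% and 66.5% of their promoters (61.8% of all tested), AGATAA, of the GATA type, in 6.76% and 6.4% (6.01%), and CCACG, of the unfolded protein response, in 50.9% and 43.1% (49.6%). For upregulated and downregulated genes the matched shares were 79.4% and 77.5%, so these comparisons are void in the same sense.

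Matrix, adhesion and cytoskeleton genes had 74 of 258 members upregulated (28.7%) and 34 downregulated (13.2%). Proteases of the matrix and their inhibitors rose in 20 of 35 cases and fell in 3 (median 1.22), although without the minimum the median over 70 genes was 0.14. Plaur, the urokinase receptor, rose from 8.41 to 121 FPKM, and the cystatin gene Cst3, which encodes an inhibitor of cathepsins, from 126 to 1148 FPKM (3.17). Receptors for the matrix shifted in composition. Among integrin genes, Itgav (3.84 to 16.3 FPKM), Itga5 (1.54 to 6.07 FPKM) and Itgb1 (15.4 to 38.1 FPKM) rose, and Itga6, a laminin receptor subunit, fell from 11.1 to 3.25 FPKM, while Itgb7 fell from 2.91 to 0.45 FPKM. Tight junction genes exchanged members in a like manner. Cldn6 (13.9 to 107 FPKM) and Cldn7 (46.2 to 182 FPKM) rose, whereas Cldn4 (12.3 to 3.01 FPKM) and Jam2 (92.1 to 16.3 FPKM) fell. Annexins and S100 proteins, which bind calcium and membranes, rose in 10 of 16 cases and fell in 3 (median 1.97). S100a10 rose from 176 to 1628 FPKM and its partner Anxa2 from 2.73 to 36.9 FPKM. Of 63 actin, myosin and contractility genes, 15 rose and 6 fell (median 0.52), with the tropomyosin gene Tpm4 going from 13.8 to 136 FPKM. Intermediate filament genes had a negative median (-0.43, and 0.07 with a minimum of 5 FPKM) but a summed FPKM 3.02 times as high, since Krt8, Krt18 and the lamin gene Lmna (18.4 to 107 FPKM) rose. In the cilium and centrosome list, 1 of 59 genes rose and 8 fell (median -0.34), with Bbs2, of the BBSome, falling from 12.3 to 2.95 FPKM.

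Signalling genes changed as individual ligands and receptors more than as whole pathways. Of 29 genes of FGF signalling, 6 rose and 9 fell. The ligand genes diverged, as Fgf4, the ligand by which epiblast induces primitive endoderm, fell from 13.6 to 2.84 FPKM and Fgf17 from 12.5 to 1.40 FPKM, whereas Fgf10 rose from 0.15 to 4.43 FPKM. Of the phosphatases that restrain MAP kinases, Dusp4 rose from 1.44 to 10.5 FPKM and Dusp1 fell from 18.04 to 4.97 FPKM. In the list of Nodal, activin and BMP signalling, 5 of 20 genes fell and 1 rose, although the median was 0.11 (-0.03 with quantile normalization). The ligand genes Gdf3 (36.2 to 7.77 FPKM) and Bmp4 (11.6 to 3.12 FPKM) and the coreceptor gene Tdgf1 were among those that fell. In the Wnt list, Dkk1, a secreted inhibitor, rose from 0.55 to 28.9 FPKM (4.27) and Wls, needed for Wnt secretion, from 0.35 to 3.70 FPKM, while the secreted inhibitor genes Sfrp1 (8.54 to 3.74 FPKM) and Sfrp2 (2.39 to 0.60 FPKM) fell. Hippo pathway genes and YAP targets rose in 8 of 24 cases and fell in 0 (33.3% and 0%, median 0.51). These were target genes such as Ankrd1 (0.19 to 28.1 FPKM) and Cyr61 (1.17 to 50.5 FPKM) and inhibitors of YAP such as Amot (0.1 to 10.03 FPKM), Amotl2 (0.94 to 12.8 FPKM) and Lats2 (2.29 to 13.6 FPKM). Genes of immunity split by family. B2m, the light chain of MHC class I, rose from 14.7 to 183 FPKM, and the complement inhibitor genes Cd55 (0.64 to 13.6 FPKM) and Cd59a (5.46 to 34.9 FPKM) rose, whereas Ifitm1 (276 to 56.3 FPKM) and Ifitm3 (737 to 144.8 FPKM), which restrict viral entry and are high in stem cells, fell. Ifitm genes are similar in sequence, so reads may have been divided among them. Myc fell from 8.47 to 1.62 FPKM (-1.85), and Klf6 was the only 1 of 14 Kruppel-like and Sp factor genes tested that rose (2.24 to 19.01 FPKM), while Klf2 fell from 7.02 to 2.90 FPKM.

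Over the lists of metabolism, 16.6% of genes tested rose and 9.36% fell, near the shares of all genes. Rises were more frequent in the lists of fatty acid synthesis and solute carriers, and the mitochondrial core changed little. Other lipid lists did not share these rises, with 6.98% up and 4.65% down for fatty acid oxidation and peroxisomes. Apolipoproteins and retinoid transport had 28% each way. Of other transport lists, 13.3% of mitochondrial carriers, 14.3% of ABC transporters and 37.8% of ion pumps and channels rose. Of 31 genes of fatty acid synthesis, desaturation and storage, 10 rose and 0 fell (median 0.48). Beside Fabp3, the 10 included Elovl1, which elongates fatty acids (8.47 to 61.7 FPKM), Scd1, which desaturates them (1.5 to 8.54 FPKM), and Fasn, the fatty acid synthase (2.31 to 7.22 FPKM). Among cholesterol synthesis genes 5 of 29 rose, 17.2% against 13.8% of all genes, and Abcg1, an exporter of cholesterol, fell from 7.23 to 2.64 FPKM. Solute carriers rose in 39 of 123 cases and fell in 6 (31.7% and 4.88%), and without the minimum in 41 and 7 of 206 (19.9% and 3.4%). Slc44a3, of the choline transporter family, rose from 1.27 to 65.8 FPKM (4.88), Slc35a2, which brings UDP-galactose into the Golgi, from 0.62 to 12.7 FPKM, and the cystine transporter subunit gene Slc7a9 from 0.1 to 6.91 FPKM, while Slc7a3, a carrier of basic amino acids, fell from 40.1 to 6.81 FPKM. Glycolysis genes had 5 rises and 4 falls among 38 (13.2% and 10.5%), near the shares of all genes (13.8% and 8.32%). The glucose transporter gene Slc2a3 rose from 40.2 to 172 FPKM and the lactate carrier gene Slc16a1 from 3.89 to 20.8 FPKM, whereas Ldhb fell from 216 to 69.4 FPKM. The mitochondrial core was nearly level, with medians of 0.01 for the TCA cycle, 0.06 for complex I, 0.01 for complexes II to IV and -0.03 for ATP synthase, the first 3 of which were below 0 with quantile normalization, and of the 125 genes of these 4 lists 1 rose (Cox6a1, 679 to 1415 FPKM) and 6 fell. Of the complexes II to IV, the genes that fell were Cox8c (5.02 to 0.31 FPKM), Cox6a2, Cox7b2 and Cox4i2, which are tissue-specific isoforms. The 7 tested genes on the mitochondrial chromosome had a higher median, 0.70, and 0 passed the limit in either direction. Antioxidant genes had 8 rises and 6 falls among 49 (16.3% and 12.2%), also not far from the shares of all genes. Mgst3 (42.3 to 379.7 FPKM) and Glrx (0.37 to 14.96 FPKM) rose, and Gsta4 (281 to 61.7 FPKM) and Nqo1 (19.6 to 5.14 FPKM) fell.

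The lists of DNA replication and repair had negative medians. Together with lists of the cell cycle, chromatin, apoptosis and transcription factors they made 15 lists of 636 genes, of which 37 rose and 62 fell (5.82% and 9.75%, median -0.19). The homeobox, Fox, Sox and Gata factors among them had 11 rises and 5 falls of 31 (35.5% and 16.1%, median 0.42). Without the minimum these factors had 13 rises and 5 falls of 88 (14.8% and 5.68%, median 0.20). Of those 88, 21 stood at the lowest value in KLF3-GFP-negative cells. In DNA replication, 50 of 59 genes had a change below 0, but 7 passed the limit downward and 1 upward (median -0.48). Pola1, the catalytic subunit of the primase-polymerase, fell from 13.4 to 2.62 FPKM, and Orc2, of the origin recognition complex, from 44.3 to 10.4 FPKM. Genes of homologous recombination and mismatch repair had 8 of 49 members downregulated and 0 upregulated, and histone genes 7 of 45 downregulated and 1 upregulated. H2afx, the histone variant of DNA damage foci, fell from 316 to 105 FPKM. Of 35 genes of the cyclins, E2F and retinoblastoma family, 4 rose and 5 fell (11.4% and 14.3%, median -0.02). Over all genes tested the shares were 13.8% and 8.32%. Called genes of the G1 phase went both ways. Ccnd2 rose from 0.98 to 19.6 FPKM and Rb1, the retinoblastoma gene, from 1.18 to 19.05 FPKM (3.20), whereas Ccnd1 (15.7 to 4.16 FPKM) and Ccnd3 (109 to 46.9 FPKM) fell. Inhibitors of cyclin-dependent kinases diverged as well, as Cdkn2a rose from 9.44 to 37.5 FPKM and Cdkn1c, which is imprinted, fell from 22.9 to 5.30 FPKM. Of 43 SWI/SNF, ISWI, CHD and NuRD remodeller genes 2 rose and 2 fell (4.65% each). Of 24 Polycomb genes 2 rose and 2 fell (8.33% each), so both lists were near or below the shares of all genes. Smarca2, which encodes the alternative ATPase of the SWI/SNF complex, rose from 0.28 to 9.20 FPKM (2.99). The Polycomb genes Phc1 (22.0 to 5.35 FPKM) and Pcgf2 (234 to 77.2 FPKM) fell while Pcgf5 rose (3.13 to 14.54 FPKM). Of 15 genes of the CtBP corepressor complex, with which KLF3 is known to act, 0 rose and 1 fell, Rcor2 (12 to 4.92 FPKM).

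Lists of RNA processing, protein synthesis, folding and degradation held few called genes. Over 15 lists, which also take in the ubiquitin system, heat shock proteins and imprinted genes, 23 of 911 genes rose and 29 fell (2.52% and 3.18%), below the shares of all genes, and the median was -0.16. No gene of 79 for RNA polymerase II and Mediator and of 46 for the nuclear pore and karyopherins passed the limit in either direction. Many of these genes are highly expressed, and the share of these lists among all FPKM was 44.9% in negative cells and 37.9% in positive cells. Of 85 cytosolic ribosomal protein genes 72 had a change below 0, with a median of -0.23 and 3 past the limit, which were the paralogues Rpl10l, Rpl22l1 and Rpl39l. Proteasome subunits behaved alike, with 38 of 46 below 0, a median of -0.34 and 3 downregulated, among them Psmb10, a subunit of the immunoproteasome (104 to 45.0 FPKM), and Psma8, of germ cells (5.94 to 1.41 FPKM). Among splicing factors, the RNA-binding protein gene Rbm47 was the only 1 of 119 to rise (1.31 to 11.2 FPKM). The small heat shock protein gene Cryab rose from 3.89 to 129 FPKM (4.73) in a list whose median was -0.27.

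**Figure D4:**
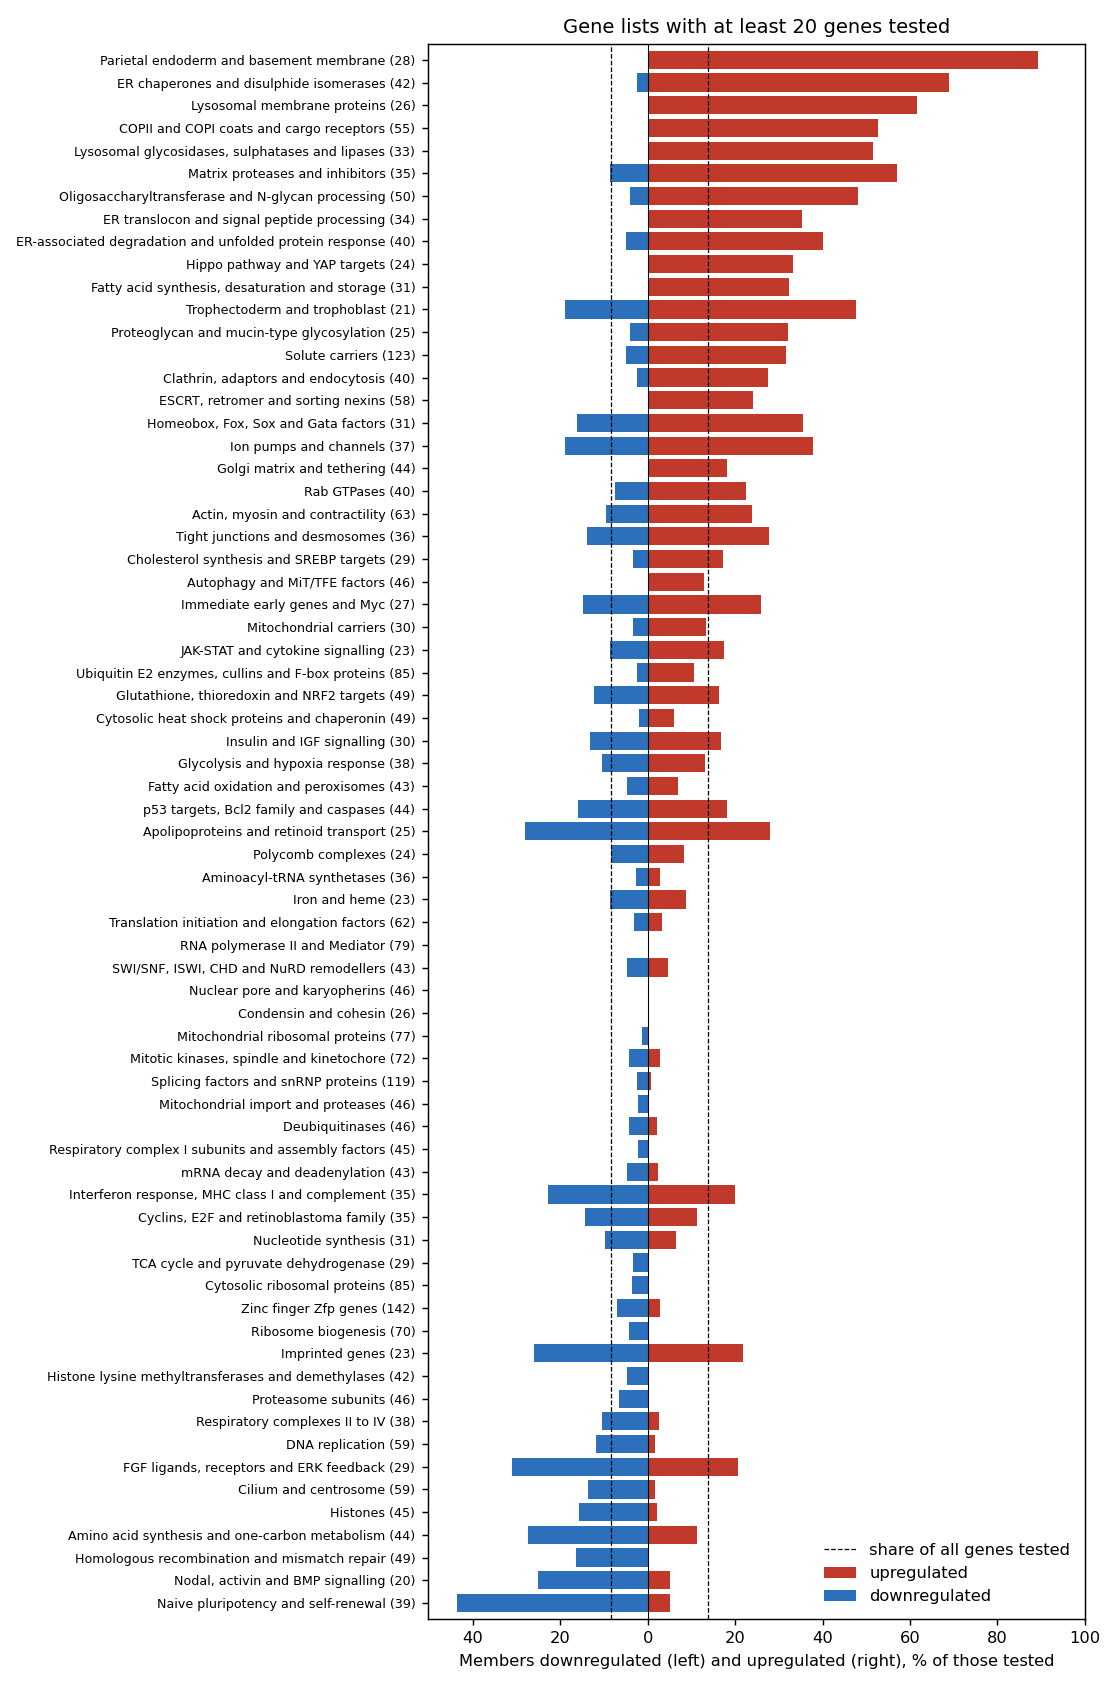
Shares of members downregulated (blue, to the left) and upregulated (red, to the right) in the 69 lists with at least 20 genes tested, given in brackets, ordered by the difference of the shares, with dashed lines at the shares of all genes tested (8.32% and 13.8%). Basement membrane, ER chaperone and lysosomal membrane lists stand at the top, naive pluripotency at the bottom, and lists of RNA and protein synthesis have short bars on both sides.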

How the data were processed

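RNA of sorted mESCs, KLF3-GFP-positive or KLF3-GFP-negative (2 samples of 500 cells each), was sequenced by Smart-seq2. After alignment to mm10 guided by the GENCODE annotation, the authors computed FPKM, averaged the replicates and deposited 1 FPKM value per protein-coding gene and condition, with 2 decimals and 0.1 as the lowest value. The submitters' processing notes name STAR 2.6.0 and Cufflinks 2.2.1. Their DESeq2 P values were not used. The depth is unknown, since averaging and rounding removed the steps of whole reads, so no interval is given. The 2 columns of the other experiment were not used.

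The 13067 entries were reduced to 13056 genes by keeping the locus with the highest mean, and 19 symbols turned into dates by a spreadsheet were replaced by those of their identifiers. Changes are differences of log2(FPKM + 1) where both conditions averaged 1 FPKM or more, called beyond 2-fold, with no test (Python 3.11.15, pandas 2.3.3, numpy 2.4.6). Starts of genes were converted to count from 1. The 92 gene lists were written from textbook knowledge, with earlier results of these data known, and members and lists are described by counts and medians. Patterns for the Rab, Slc, Itg, Psm and Nol families were narrowed after the values were seen, to drop genes that share only the start of a symbol. Genes shared by lists count in each. Named genes are the 15 largest rises and falls, the 10 highest genes, the 6 largest changes per list, all members of the naive pluripotency, primitive endoderm regulator, trophectoderm and Kruppel-like lists, and genes named by the study for this comparison, and others are marked. Genes with near-identical copies, such as ribosomal protein, histone and Ifitm genes, are uncertain, since reads may be divided among copies. Alternatives were quantile normalization, median-ratio scaling, a minimum mean of 5 FPKM or none, a pseudocount of 0.1, and values floored at 0.1 with no pseudocount. The scripts were tested on simulated data. Some genes that the rule names are not reported here.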

Additional observations from a re-analysis of the deposited data

How the results depend on the processing

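A minimum mean of 5 FPKM lowered the numbers of upregulated and downregulated genes to 840 and 417, where fewer genes are tested. Against 1267 and 766 genes as reported, the other alternatives gave 1088 to 1713 upregulated and 808 to 1084 downregulated genes, with 1088 and 946 under quantile normalization. Quantile normalization moved the median change of all genes from 0.03 to -0.0883, and the cause was not tested. Of 593 named genes, 0 that passed the limit changed sign under an alternative. Only quantile normalization and median-ratio scaling could change the sign of a gene, since the other settings keep it by construction. The limit was crossed in either direction by 40 under quantile normalization, 26 with a floor of 0.1, 23 with a pseudocount of 0.1 and 15 with median-ratio scaling. Among the 85 lists with 10 or more tested genes, medians changed sign in 11 under quantile normalization and in 5 under median-ratio scaling. They did so in 5 with a minimum of 5 FPKM and in 3 without a minimum. With a pseudocount or floor of 0.1, which keep the sign of every gene, 0 did. Of the lists that changed sign, ion pumps and channels (0.84, and -0.05 without a minimum) and keratins (-0.43, and 0.07 with a minimum of 5 FPKM) had started beyond 0.25. No paired analysis was possible because the table gives 1 mean per condition and no value per replicate, and for the same reason no replicate could be left out. Calls therefore rest on fold size alone, and low genes, for which the pseudocount matters most, are the least certain.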

Other observations

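Calls were spread over expression levels. The share of upregulated genes was 11.4% among genes with a mean of 1 to 5 FPKM, 16.4% from 5 to 20 FPKM, 15.3% from 20 to 100 FPKM and 13.1% from 100 FPKM, and the share of downregulated genes was 9.29%, 9.55%, 6.97% and 3.98%. By genomic span, downregulated genes made up 11.9% of the shortest and 7.16% of the longest of 5 groups of equal size, and the median change was -0.03 and 0.12. Of 287 genes tested on the X chromosome 59 rose (20.6%) and 30 fell (10.5%), and on chromosome 7 the share downregulated was 12.3%. These shares are descriptions without a test.

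Imprinted genes moved in both directions, with 5 of 23 tested upregulated and 6 downregulated. Beside Igf2r, which binds IGF2, and Phlda2, the zinc finger gene Peg3 rose from 0.32 to 4.31 FPKM and Snrpn, named here after its values were seen, fell from 79.6 to 26.4 FPKM. In the list of insulin and IGF signalling, the binding protein gene Igfbp2 fell from 93.5 to 19.8 FPKM, while Akt1 rose from 2.49 to 9.56 FPKM. Of 23 iron and heme genes tested 2 rose and 2 fell (8.7% each, median 0.27, with 17 changes above 0). Over all genes tested, 13.8% rose and 8.32% fell. Tfrc, the transferrin receptor, fell from 6.50 to 1.39 FPKM, whereas Slc40a1, the iron exporter, rose from 0.22 to 1.96 FPKM. Among ion pumps and channels, the water channel gene Aqp8 rose from 0.1 to 24.4 FPKM and the chloride channel gene Clcn5, of endosomes, from 0.16 to 6.31 FPKM, while the median of this list depends on the minimum. Of 142 Zfp zinc finger genes tested, 4 rose and 10 fell (2.82% and 7.04%), both below the shares of all genes (13.8% and 8.32%). Zfp57, which maintains imprints, fell from 51.6 to 20.4 FPKM.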
